A study of Mus musculus with 22 samples.

Results

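Alveolar macrophages cultured alone were compared with primary tumor cells cultured alone, to describe what each partner expressed before the 2 were put together. The comparison used 6 of the 22 RNA-sequencing libraries of the study: 3 of alveolar macrophages and 3 of primary tumor cells, chosen by their labels and not by any measured value. The macrophages were primary cells from the lungs of wildtype FVB mice. The tumor cells were primary mammary epithelium of MMTV-HER2 mice, in which the mouse mammary tumor virus promoter drives the HER2 (Erbb2) oncogene in mammary epithelium. Both were kept in the same medium on matrigel, with horse serum, hydrocortisone, insulin and EGF, so hormone and EGF were present in either group. Co-cultures of the study lasted 7 days before sorting, whereas the time in mono-culture is not stated separately. Macrophages and tumor cells also differed in organ and genotype, so cell type, tissue of origin and transgene cannot be told apart. All gene symbols of the table were used except the mitochondrially encoded genes and Grip2, which left 32530 symbols, of which 13810 had enough counts to be tested.

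Alveolar macrophages live in the air spaces of the lung, where they clear surfactant lipid, debris and microbes. Their development depends on GM-CSF and TGF-beta, which act through PU.1 and PPAR-gamma. Mammary tumors driven by HER2 arise from luminal epithelium, which carries keratins, cell junctions and milk genes. HER2 has no ligand of its own and signals in pairs with the EGF receptor or ERBB3. Macrophages and epithelium communicate through secreted ligands and surface receptors, so a gene held by 1 partner and its receptor held by the other make a possible channel. Transcript levels do not show that the protein is made, secreted or bound.

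The macrophage libraries held 21492694 to 22790135 counts and the tumor cell libraries 27100741 to 27595567. Mitochondrially encoded genes took 65.7, 72.7 and 69.6% of the macrophage counts, against 2.86, 3.52 and 3.06% of the tumor cell counts. Grip2 alone took 12.9, 2.60 and 2.32% in the macrophages, against 1.08, 3.27 and 5.84% in the tumor cells. Without these, 4651893 to 6028177 counts remained per macrophage library, against 25139116 to 26198672 per tumor cell library, so low genes were measured with less precision in the macrophages. The part of this difference in the results below was not tested directly. Macrophages of the study's early lesion experiment, with only 3.38 and 3.53% mitochondrial counts, are therefore given beside the main values at the end. Levels are CPM (counts scaled to a common library size) after removal of these genes and scaling by library composition. Differences are log2 values of macrophages over tumor cells with their standard error (SE), and a gene was called at a Benjamini-Hochberg adjusted p under 0.05 in edgeR's quasi-likelihood test.

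Most genes differed: 37.3% of tested genes were called higher in the macrophages and 42.4% lower, together 79.7%. The median log2 difference over all tested genes was -0.14. A bare call therefore says little about a gene, and the sizes of the differences and the levels carry the description. Genes were also put on a side: 19.3% of tested genes were on the macrophage side and 24.4% on the tumor cell side, meaning called, at least 2-fold apart and at 5 CPM or more in the higher group. Another 37.8% reached 5 CPM in both groups without a 2-fold call, and 17.1% stayed under 5 CPM in both.

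The macrophage libraries carried the alveolar macrophage programme at very high levels. Chil3, which encodes a chitinase-like lectin secreted by these cells, stood at 10148, 7790.0 and 7919.9 CPM in the macrophages, against 0.0356, 0 and 0 CPM in the tumor cells. Lyz2, encoding lysozyme, reached 11527, 9923 and 8203 CPM in the macrophages and 0, 0.182 and 0.0358 CPM in the tumor cells. The proton pump subunit gene Atp6v0d2 was at 3608, 3604 and 3079 CPM in the macrophages, against 0.107, 0.146 and 0.0358 CPM in the tumor cells. These 3 genes were within a few counts of absence in every tumor cell library. Chil3 and Lyz2 have closely related neighbouring copies, Chil4 and Lyz1, so their counts are uncertain to the extent that the counting split shared reads.

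Of 12 alveolar macrophage markers, 11 were higher in the macrophages, none was lower, and the median log2 difference was 12.59. The mannose receptor gene Mrc1 averaged 863 ± 69.4 CPM in the macrophages and 0.372 ± 0.120 CPM in the tumor cells (SD, n = 3 each), a log2 difference of 11.15 (SE 0.19, adjusted p = 6.92e-11). Itgax (the CD11c integrin chain), the scavenger receptor gene Marco, Car4 (carbonic anhydrase) and the ribonuclease gene Ear2 had no count in any tumor cell library. Set against a floor of 3 counts over the group, they were at least 5186-fold, 2844-fold, 1660.5-fold and 2722-fold higher in the macrophages. Ear2 belongs to a family of near-identical ribonuclease genes and is uncertain for that reason. Siglecf, a sialic acid receptor that marks these cells in mouse, was at 57.1, 52.8 and 47.7 CPM in the macrophages, against 0.0356, 0.109 and 0.0358 CPM in the tumor cells. The lipid chaperone gene Fabp4 was at 246, 264 and 288 CPM in the macrophages, against 0, 0.0364 and 0.107 CPM in the tumor cells. Pparg, the nuclear receptor gene of alveolar macrophage identity, was at 301, 333 and 317 CPM against 3.95, 2.77 and 1.54 CPM, with a log2 difference of 6.84 (SE 0.25, adjusted p = 5.00e-09). Only Plet1 and Krt79 of the markers were shared by the tumor cells. Plet1, which epithelium also expresses, averaged 503 ± 42.8 CPM in the macrophages and 316 ± 44.9 CPM in the tumor cells, and it overlaps Plet1os on the other strand. Krt79 was at 64.4, 75.8 and 71.1 CPM in the macrophages and 61.9, 58.2 and 70.6 CPM in the tumor cells, and was not called (adjusted p = 0.217).

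Markers common to macrophages gave the same picture: 10 of 11 could be tested, and all 10 were higher in the macrophages, with a median log2 difference of 9.11. Cybb, the catalytic subunit of the phagocyte oxidase, was at 1625, 1379 and 1049 CPM in the macrophages, against 5.51, 5.57 and 6.12 CPM in the tumor cells. Cd68, a lysosomal glycoprotein, was at 770, 736 and 616 CPM in the macrophages, against 0.534, 0.619 and 0.465 CPM in the tumor cells. The summed level of the 11 markers ran between 11622 and 15937 CPM in the macrophage libraries, against 15.1 to 18.1 CPM in the tumor cell libraries. What remained in the tumor cells was mostly Cybb, Spi1 at 3.66, 3.97 and 3.15 CPM and Csf1r at 3.13, 4.15 and 3.25 CPM, while Lyz2 was at or near 0 there.

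**Figure D1:**
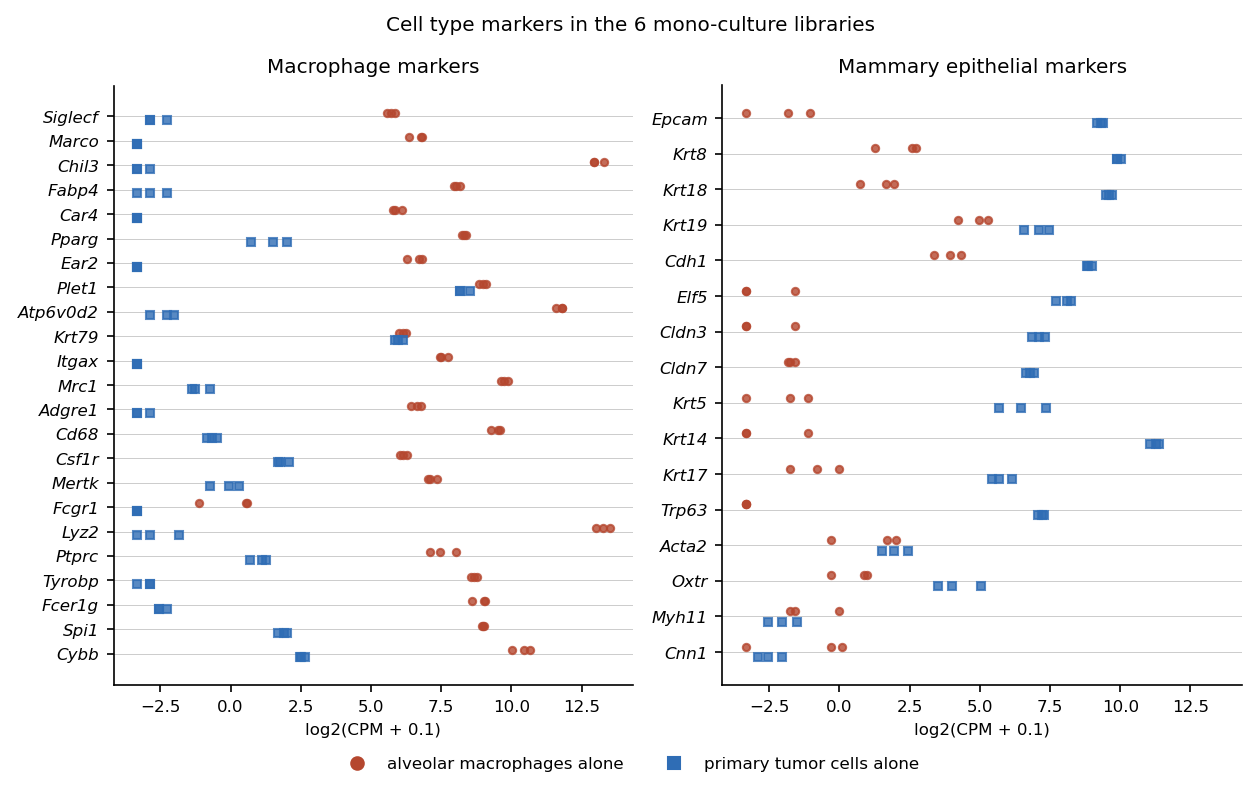
Level of 23 macrophage markers and 16 mammary epithelial markers in each library, as log2 of CPM plus 0.1; circles are the 3 alveolar macrophage libraries and squares, just below them, the 3 primary tumor cell libraries. Nearly all macrophage markers sit far to the right in the macrophages and most epithelial ones in the tumor cells, whereas Krt79 and Plet1 lie close together, and Acta2, Cnn1 and Myh11 are low in both.

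Other cell types were searched for in the same way. Fibroblast genes were the clearest: 5 of 6 tested members were lower in the macrophages and higher in the tumor cells, and their sum ran between 15.5 and 35.7 CPM in the macrophages, against 273 to 487 CPM in the tumor cells. Col1a1 was at 15.0, 6.98 and 13.5 CPM in the macrophages, against 132, 233 and 123 CPM in the tumor cells, and Col1a2 at 10.8, 1.94 and 6.48 CPM against 123, 183 and 115 CPM. Col3a1 was at 7.52, 3.10 and 8.65 CPM in the macrophages, against 33.8, 45.3 and 14.5 CPM in the tumor cells. Dcn and Lum stayed under 2 CPM in every library. Pdgfra, also on the list, averaged 1.04 CPM in the macrophages and 21.0 CPM in the tumor cells, and overlaps a transcript on the other strand. Of the 8 members, 4 were on the tumor cell side and 4 were under 5 CPM in both groups. In bulk libraries such as these, fewer cells of a type and less RNA per cell cannot be told apart. S100a8 was the 1 neutrophil marker with enough counts to be tested, at 84.9, 104 and 82.7 CPM in the macrophages, against 22.3, 27.6 and 18.2 CPM in the tumor cells. Its partner S100a9 and the neutrophil gene Ly6g had no count in any macrophage library. The 4 endothelial markers tested were all higher in the macrophages, yet the sum of the whole list was only 11.7 to 12.6 CPM there, against 1.27 to 1.57 CPM in the tumor cells. Lymphocyte markers summed to at most 0.901 CPM in the macrophages and 2.29 CPM in the tumor cells. None of these lists came near the sums of the macrophage or epithelial markers. Genes of interstitial macrophages and monocytes, such as the complement genes C1qa, C1qb and C1qc, summed to between 1.16 and 4.0 CPM in the macrophages, against 0.751 to 1.14 CPM in the tumor cells. Dendritic cell markers summed to between 2.59 and 3.96 CPM in the macrophages, against 2.62 to 2.68 CPM in the tumor cells. The surfactant genes Sftpc, Sftpb and Sftpa1 of lung epithelium had no count in any macrophage library. Hopx, a lung epithelial marker, was higher in the macrophages (6.58, 7.37 and 9.73 CPM, against 0.854, 0.691 and 0.608 CPM), and the cilia regulator gene Foxj1 lower (0, 0.194 and 0 CPM, against 6.05, 6.55 and 5.65 CPM). The overlap of Hopx with Hopxos on the other strand makes it uncertain.

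The tumor cells were epithelial, with luminal and basal keratins together. All 8 luminal markers were lower in the macrophages, with a median log2 difference of -8.60. Krt8 was at 5.88, 2.33 and 6.48 CPM in the macrophages, against 1032, 945 and 956 CPM in the tumor cells, and its partner Krt18 at 3.76, 1.55 and 3.06 CPM against 832, 781 and 714 CPM. Epcam, the epithelial adhesion molecule, was at 0, 0.388 and 0.180 CPM in the macrophages, against 643, 581 and 669 CPM in the tumor cells. These levels left 49.1 to 59.1 CPM of the luminal list in the macrophages, mostly Krt19 and Cdh1, against 3363 to 3689 CPM in the tumor cells. Of the basal and myoepithelial markers, 6 of 8 were tested and 5 were lower in the macrophages. Krt14 was at 0, 0 and 0.360 CPM in the macrophages, against 2456, 2122 and 2637 CPM in the tumor cells, a tumor cell to macrophage ratio of 18005 (95% counting interval 4984 to 148671). The basal transcription factor gene Trp63 had no count in the macrophages and 135, 150 and 158 CPM in the tumor cells. Krt5 varied widely among the tumor cell libraries, at 50.9, 88.6 and 163 CPM, against 0, 0.194 and 0.360 CPM in the macrophages. The contractile genes Acta2, Cnn1 and Myh11 stayed under 6 CPM in all 6 libraries, while Krt14 and Trp63 were well above that in the tumor cells. Of the 8 members of this list, 5 were on the tumor cell side and 3 were under 5 CPM in both groups.

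HER2 separated the groups as the labels say. Erbb2 was at 9.17, 8.53 and 8.47 CPM in the macrophages, against 4527, 4706 and 3987 CPM in the tumor cells, a log2 difference of -8.98 (SE 0.17, adjusted p = 1.24e-10). Whether reads of the transgene are counted under this symbol was not tested, and Erbb2 overlaps Mien1 on the other strand. Of 7 tested genes of the ErbB receptors and their adaptors, 2 were higher in the macrophages, 4 were lower and 1 was not called. Over all tested genes, 37.3% were higher and 42.4% lower. The partner receptors of HER2 were also on the tumor cell side, with Egfr at 2.59, 2.13 and 1.44 CPM in the macrophages, against 115, 111 and 108 CPM in the tumor cells. Erbb3 was at 1.65, 0.776 and 1.08 CPM in the macrophages, against 104, 108 and 115 CPM in the tumor cells. The feedback inhibitor gene Errfi1 averaged 16.5 ± 2.20 CPM in the macrophages and 113 ± 9.81 CPM in the tumor cells (SD, n = 3 each). The adaptor gene Grb2 went the other way, with 194 ± 5.96 CPM in the macrophages, 86.4 ± 2.14 CPM in the tumor cells and a log2 difference of 1.17 (SE 0.08, adjusted p = 3.08e-07).

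Milk genes were a tumor cell property with a single exception. Of 12 members, 11 were lower in the macrophages, and the median log2 difference was -10.58. Lcn2, the iron-scavenging lipocalin, was at 0.235, 1.94 and 0.720 CPM in the macrophages, against 8176, 8595 and 7555 CPM in the tumor cells. Kappa-casein (Csn3) was at 1.18, 0 and 0.180 CPM in the macrophages, against 6514, 7413 and 5818 CPM in the tumor cells, and Csn1s1 at 0, 0.388 and 0.540 CPM against 2467, 1719 and 788 CPM. Beta-casein (Csn2) was the exception, at 832, 702 and 443 CPM in the macrophages, against 44.9, 39.1 and 3.58 CPM in the tumor cells, a log2 difference of 4.50 (SE 0.98, adjusted p = 0.00859). The groups did not overlap, although the third tumor cell library was far below the other two. Csn2 was also present in the other macrophage libraries, with 829, 672 and 748 CPM after co-culture and 383 and 449 CPM in the early lesion experiment. The matching tumor and early lesion cells had 20.8, 43.6 and 2.44 CPM and 9.66, 33.5 and 14.9 CPM. Kappa-casein was at 57.1, 26.3 and 39.3 CPM in co-cultured macrophages and 0.461 and 0.225 CPM in those of the early lesion experiment.

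Junction genes were uniform in direction: all 30 were lower in the macrophages, with a median log2 difference of -7.70, where 42.4% of all tested genes were lower. Dsp (desmoplakin, the anchor of desmosomes to keratin) averaged 3.30 ± 0.232 CPM in the macrophages and 1083 ± 200 CPM in the tumor cells. Jup (plakoglobin) was the exception in size, at 98.7, 119 and 111 CPM in the macrophages, against 796, 846 and 940 CPM in the tumor cells, a log2 difference of -2.97 (SE 0.11, adjusted p = 5.80e-09). Laminins and other basement membrane genes were lower in the macrophages for 18 of 20 members, higher for 1 and not called for 1, with a median of -5.30. Agrn (agrin) was at 22.3, 17.8 and 20.5 CPM in the macrophages, against 540, 514 and 525 CPM in the tumor cells. Lamb3 averaged 0.882 ± 0.873 CPM in the macrophages and 255 ± 7.82 CPM in the tumor cells, and Lamb1 3.26 ± 1.06 CPM and 181 ± 12.8 CPM.

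Integrins divided by cell type. Of 20 tested subunits, 6 were higher in the macrophages and 12 lower, where 37.3% of all tested genes were higher and 42.4% lower. The leukocyte chains were on the macrophage side: Itgb2 was at 641, 542 and 494 CPM, against 1.28, 0.946 and 1.00 CPM in the tumor cells, and its partner Itgam at 89.1, 84.0 and 66.3 CPM against 0.356, 0.473 and 0.501 CPM. The laminin-binding chains were on the tumor cell side. Itgb4, the hemidesmosome integrin, was at 2.12, 0.776 and 0.901 CPM in the macrophages, against 519, 567 and 703 CPM in the tumor cells. Itga6 averaged 27.4 ± 4.03 CPM in the macrophages and 551 ± 16.8 CPM in the tumor cells, and the common chain Itgb1 153 ± 19.0 CPM and 980 ± 33.0 CPM.

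Transcription factors followed the same division, with exceptions. Of 17 macrophage factors, 13 were higher in the macrophages, 3 lower and 1 not called, with a median log2 difference of 3.20. Spi1, which encodes PU.1, was at 499, 519 and 512 CPM in the macrophages, against 3.66, 3.97 and 3.15 CPM in the tumor cells, a log2 difference of 7.15 (SE 0.12, adjusted p = 7.05e-11). Runx1 and Bhlhe40 were high in both, with log2 differences of 1.59 ± 0.10 and 2.32 ± 0.08. Runx1 averaged 705 ± 25.4 CPM in the macrophages and 234 ± 19.8 CPM in the tumor cells, and Bhlhe40 380 ± 6.89 CPM and 76.2 ± 3.34 CPM. Both overlap a transcript on the other strand and are uncertain to that extent. Of 18 tested mammary factors, 17 were lower in the macrophages, with a median of -7.48. Trps1 averaged 50.6 ± 5.20 CPM in the macrophages and 668 ± 62.4 CPM in the tumor cells. Sox10, a factor of neural crest and of mammary progenitors, was at 0, 0.582 and 0 CPM in the macrophages, against 350, 398 and 476 CPM in the tumor cells. The epithelial ETS factor gene Ehf was at 0, 0 and 0.180 CPM in the macrophages, against 336, 309 and 222 CPM in the tumor cells.

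Promoters were read for the DNA letters of 3 factors, to show the sequence at genes of each side. RefSeq promoters of build GRCm38.p6, each of 300 bases (250 before the start and 50 from it), were available for 27025 genes, 10081 of the tested ones among them. The letters GAGGAAGT of PU.1, on either strand, were in 7.75% of promoters of macrophage-side genes with at least a 4-fold difference (75 of 968). They were in 3.28% of tumor cell-side promoters by the same rule (44 of 1343), in 3.67% of tested genes and in 3.69% of all promoters. The letters AACCGGTT of the grainyhead-like factors, which read alike on both strands, were in 0.413% of macrophage-side and 0.223% of tumor cell-side promoters, against 0.317% of tested genes and 0.174% of all promoters. GCCNNNGGC of AP-2, also alike on both strands, was in 29.5% of macrophage-side and 32.7% of tumor cell-side promoters, against 29% of tested genes and 18.5% of all promoters. A match is a description of letters and not a binding site. The 5 promoters shown were picked after the values were seen. Ctss, Fcgr4 and Havcr2 are macrophage-side genes with PU.1 letters near the start, Aqp5 is the gene furthest on the tumor cell side, and Erbb2 shows the PU.1 letters in a tumor cell-side promoter. Capitals mark the match, the same letters as above or their reverse complement. No capital stretch overlaps a match of another of the 3 motifs.
Ctss (chr3:95526536-95526835, plus strand): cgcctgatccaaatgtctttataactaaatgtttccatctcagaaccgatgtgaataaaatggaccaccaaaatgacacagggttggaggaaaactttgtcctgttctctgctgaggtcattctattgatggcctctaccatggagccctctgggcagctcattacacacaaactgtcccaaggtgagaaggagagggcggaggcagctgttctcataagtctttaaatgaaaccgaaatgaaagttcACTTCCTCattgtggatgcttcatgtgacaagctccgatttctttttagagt
Fcgr4 (chr1:171018676-171018975, plus strand): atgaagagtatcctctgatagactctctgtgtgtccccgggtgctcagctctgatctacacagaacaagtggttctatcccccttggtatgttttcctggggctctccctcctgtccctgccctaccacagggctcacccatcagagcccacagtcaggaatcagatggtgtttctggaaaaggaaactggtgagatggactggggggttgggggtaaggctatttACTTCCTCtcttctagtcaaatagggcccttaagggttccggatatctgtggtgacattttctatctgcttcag
Havcr2 (chr11:46454681-46454980, plus strand): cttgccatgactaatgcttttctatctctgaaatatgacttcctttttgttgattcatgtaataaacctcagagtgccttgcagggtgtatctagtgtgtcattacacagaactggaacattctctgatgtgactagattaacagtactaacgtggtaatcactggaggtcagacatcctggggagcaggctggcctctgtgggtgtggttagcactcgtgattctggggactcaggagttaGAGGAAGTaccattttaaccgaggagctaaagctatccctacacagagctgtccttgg
Aqp5 (chr15:99590778-99591077, plus strand): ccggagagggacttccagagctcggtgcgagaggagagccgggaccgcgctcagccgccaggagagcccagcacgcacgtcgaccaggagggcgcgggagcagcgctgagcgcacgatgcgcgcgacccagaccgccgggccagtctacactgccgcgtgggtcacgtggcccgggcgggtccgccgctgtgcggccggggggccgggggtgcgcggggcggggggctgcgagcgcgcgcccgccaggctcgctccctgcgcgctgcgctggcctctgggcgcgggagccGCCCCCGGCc
Erbb2 (chr11:98412234-98412533, plus strand): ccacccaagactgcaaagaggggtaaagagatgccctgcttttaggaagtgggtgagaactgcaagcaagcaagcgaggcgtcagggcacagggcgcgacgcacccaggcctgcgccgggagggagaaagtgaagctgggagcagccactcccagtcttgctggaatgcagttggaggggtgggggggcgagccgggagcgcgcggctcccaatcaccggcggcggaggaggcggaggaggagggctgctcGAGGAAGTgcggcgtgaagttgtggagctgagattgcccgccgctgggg
Ctss, the gene of the lysosomal protease cathepsin S, was at 672, 479 and 409 CPM in the macrophages, against 0.0356, 0 and 0.107 CPM in the tumor cells. Fcgr4, an activating receptor for IgG, was at 63.0, 49.9 and 53.3 CPM in the macrophages, against 0.0356, 0 and 0 CPM in the tumor cells. Havcr2, the receptor TIM-3, was at 16.9, 18.4 and 16.9 CPM in the macrophages, against 0, 0.109 and 0 CPM in the tumor cells. All 3 were picked as macrophage-side genes with these letters. The PU.1 letters were in 0 of the 6 promoters available among the 12 genes furthest on the macrophage side, named below. They were also in 0 of the 12 promoters available among the 17 macrophage transcription factors. Aqp5, a water channel of secretory epithelium, had no count in the macrophages and 713, 745 and 1038 CPM in the tumor cells, and its promoter holds AP-2 letters and not those of PU.1. The Erbb2 promoter shown is that of the mouse gene, which is not the promoter that drives the transgene.

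Genes of many kinds were among those furthest apart. Among genes of at least 100 CPM, the 12 furthest on the macrophage side were Ccl6, Chil3, Nov, Lyz2, Lilrb4a, Mpeg1, Ear-ps2, Cxcr1, Atp6v0d2, Fpr2, Sla and Rps6-ps4. Nov (CCN3, a matricellular protein) was at 3759, 3097 and 2298 CPM in the macrophages, against 0.0356, 0 and 0 CPM in the tumor cells. Mpeg1, the pore-forming perforin-2 of macrophages, was at 3357, 2223 and 2049.8 CPM in the macrophages, against 0.0711, 0.0728 and 0 CPM in the tumor cells. The inhibitory receptor gene Lilrb4a and the chemokine receptor gene Cxcr1 had no count in the tumor cells and were at least 11631-fold and 7543-fold higher in the macrophages. Lilrb4a overlaps 2 other transcripts, and Ear-ps2 and Rps6-ps4 are pseudogenes with close copies, so these 3 are uncertain. Sla, an adaptor of receptor signalling, averaged 522 ± 12.1 CPM in the macrophages and 0.0119 ± 0.0207 CPM in the tumor cells.

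The 12 genes furthest on the tumor cell side had no count in any macrophage library: Aqp5, Inhbb, Atp6v1b1, Esrp1, Scara5, Irx1, Gabrp, Lurap1l, Serpinb5, Tspan8, Pkp3 and Trp63. Against the floor of 3 counts over the macrophages, the fold in favour of the tumor cells was at least 4151 for Aqp5 and at least 3988 for Inhbb. It was at least 736 for Trp63, the smallest of the 12. Esrp1, the regulator of epithelial splicing, was at 246, 253 and 255 CPM in the tumor cells, and Pkp3 (plakophilin, a desmosome protein) at 144, 146 and 168 CPM. Inhbb encodes the activin beta B chain, and Atp6v1b1 an epithelial subunit of the same proton pump whose Atp6v0d2 subunit was among the genes furthest on the macrophage side. Atp6v1b1 was at 602, 474 and 375 CPM in the tumor cells. Scara5 at 303, 198 and 109 CPM and Tspan8 at 251, 159 and 101 CPM varied widely among the tumor cell libraries. Esrp1 and Tspan8 overlap a transcript on the other strand and are uncertain to that extent.

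Uptake receptors were mostly macrophage genes. Of 21 tested scavenger and phagocytic receptor genes, 19 were higher in the macrophages and 2 lower, with a median log2 difference of 10.87. Among all tested genes, 37.3% were higher and 42.4% lower. Lrp1, an endocytic receptor for lipoproteins and dying cells, was at 1293, 1246 and 1283 CPM in the macrophages, against 165, 138 and 143 CPM in the tumor cells, a log2 difference of 3.10 (SE 0.11, adjusted p = 3.26e-09). Fcer1g, the signalling chain of Fc receptors, was at 528, 516 and 386 CPM in the macrophages, against 0.0711, 0.109 and 0.0715 CPM in the tumor cells. The 2 exceptions were Cd163, the haemoglobin scavenger receptor, and Stab1. Cd163 was at 0, 0.582 and 0.180 CPM in the macrophages, against 22.2, 27.2 and 33.6 CPM in the tumor cells, and Stab1 at 4.94, 3.30 and 7.02 CPM against 8.93, 13.9 and 13.6 CPM. Both mark other tissue macrophages in mouse, and which cells of the tumor cell cultures held these transcripts was not tested.

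Lysosomal genes were shared more evenly. Of 22 members, 17 were higher in the macrophages, 1 was lower and 4 were not called, with a median of 1.51. Among all tested genes, 37.3% were higher and 42.4% lower. Psap (prosaposin, activator of lysosomal lipid breakdown) was high in both, at 7264, 6251 and 7148 CPM in the macrophages, against 1488, 1355 and 1230.2 CPM in the tumor cells. Gpnmb, a glycoprotein of lysosomes and melanosomes, was at 3261, 2586 and 2362 CPM in the macrophages, against 0.107, 0.182 and 0.215 CPM in the tumor cells. The protease gene Ctsl was the lower member, averaging 116 ± 7.11 CPM in the macrophages and 417 ± 36.4 CPM in the tumor cells. It overlaps another transcript on each strand.

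Most lipid uptake and efflux genes were higher in the macrophages. Of 17 members, 11 were higher in the macrophages, 3 lower and 3 not called, with a median of 3.23. Among all tested genes, 37.3% were higher and 42.4% lower. Plin2, which coats lipid droplets, was at 2053, 1993 and 1968 CPM in the macrophages, against 441, 465 and 415 CPM in the tumor cells. The cholesterol exporter gene Abcg1 was at 622, 604 and 547 CPM in the macrophages, against 11, 9.97 and 5.90 CPM in the tumor cells. Lipoprotein lipase (Lpl) was at 675, 585 and 479 CPM in the macrophages, against 1.35, 2.07 and 1.68 CPM in the tumor cells. Abcg1 and Lpl were macrophage genes by wide margins, whereas Plin2 was abundant in both groups. The second exporter gene, Abca1, was the opposite, at 25.1, 25.6 and 19.5 CPM in the macrophages, against 91.2, 91.7 and 94.6 CPM in the tumor cells, a log2 difference of -1.99 (SE 0.12, adjusted p = 1.26e-07). The lipoprotein receptor gene Vldlr averaged 1.90 ± 1.23 CPM in the macrophages and 31.1 ± 2.08 CPM in the tumor cells, and Apoc1 4.50 ± 2.00 CPM and 11.5 ± 4.88 CPM.

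Sensors of microbes were mostly macrophage genes: of 16 tested Toll-like receptors and adaptors, 14 were higher and 2 lower, with a median of 1.62. Among all tested genes, 37.3% were higher and 42.4% lower. Tlr7 was at 236, 183 and 115 CPM in the macrophages, against 0.320, 0.473 and 0.250 CPM in the tumor cells. Tlr2 was at 207, 174 and 131 CPM against 32.5, 27 and 20.2 CPM, and Tlr4, the endotoxin receptor, at 198, 160 and 146 CPM against 44.5, 42.6 and 33.1 CPM. Its coreceptor gene Cd14 went the other way, at 75.2, 71.8 and 61.1 CPM in the macrophages, against 463, 359 and 235 CPM in the tumor cells, a log2 difference of -2.35 (SE 0.23, adjusted p = 9.80e-06). Tlr3 was lower as well, at 14.3, 12.8 and 4.14 CPM in the macrophages, against 47.8, 46.9 and 44.6 CPM in the tumor cells. The tumor cells therefore held the larger share of Cd14, and the macrophages that of Tlr4.

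Class II genes of antigen presentation were mostly low. Of 9 class II genes, 7 stayed under 5 CPM in both groups. Of the 7 tested, 2 were higher in the macrophages and 3 lower, where 37.3% of all tested genes were higher and 42.4% lower. H2-Ab1 was at 0.235, 0 and 0.360 CPM in the macrophages, against 3.02, 7.50 and 7.30 CPM in the tumor cells. H2-Oa, an inhibitor of peptide loading, was at 7.99, 6.79 and 4.68 CPM in the macrophages, against 0.0711, 0.0364 and 0 CPM in the tumor cells, and overlaps a transcript on the other strand. Of 11 class I genes, 4 were higher in the macrophages and 4 lower, with a median log2 difference of -0.12, against -0.14 over all tested genes. B2m, the shared light chain, was at 1685, 1525 and 1029 CPM in the macrophages, against 209, 230 and 199 CPM in the tumor cells. The heavy chain gene H2-K1 was lower, at 84.4, 82.1 and 78.0 CPM against 210, 209 and 205 CPM in the tumor cells. The light and a heavy chain thus differed in opposite directions, but H2-K1 is polymorphic and has near-identical copies, and its counts are uncertain. The immunoproteasome gene Psmb10 averaged 46.9 ± 9.02 CPM in the macrophages and 20.2 ± 0.668 CPM in the tumor cells. Psmb9 (17.5 ± 1.97 CPM and 4.44 ± 1.00 CPM) and Tap1 (12 ± 0.211 CPM and 24.4 ± 2.27 CPM) overlap on opposite strands, so their opposite differences are uncertain.

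Mitotic genes were not lower in the macrophages. Of 18 members, 12 were higher in the macrophages and 6 not called, with a median log2 difference of 0.57. Among all tested genes, 37.3% were higher and 42.4% lower. Of the 18 members, 13 reached 5 CPM in both groups without a 2-fold call. Mki67, the proliferation marker, stood apart at 689, 675 and 622 CPM in the macrophages, against 50.0, 71.5 and 109 CPM in the tumor cells, a log2 difference of 3.11 (SE 0.25, adjusted p = 3.33e-06). The spindle gene Tpx2 was at 125, 103 and 97.3 CPM in the macrophages, against 38.1, 51.7 and 62.5 CPM in the tumor cells, and the kinesin gene Cenpe at 68.2, 61.5 and 67.7 CPM against 14.8, 21.3 and 29.0 CPM. Relative to their mean, the tumor cell libraries differed from each other by more than the macrophage libraries in all 3 genes.

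The ligand and receptor lists held 161 ligand genes and 140 receptor genes in 197 pairs of 16 families. Ligands leaned to the tumor cells: 50 were on the tumor cell side and 21 on the macrophage side, while 12 were held by both, 77 were low in both and 1 was unclear. Receptors were nearly balanced, with 38 on the macrophage side, 44 on the tumor cell side, 12 in both, 44 low and 2 unclear. Of these genes, 117 ligands and 113 receptors had enough counts to be tested. Over all tested genes, 24.4% were on the tumor cell side and 19.3% on the macrophage side, a lean in the same direction. Per kilobase of exon, the most abundant macrophage ligands were Ccl6 at 7225, Ccl9 at 447, Calr at 264 and Ccl3 at 251 CPM per kilobase. The most abundant macrophage receptors were Fpr2 at 194, Sirpa at 156 and Csf2rb at 100 CPM per kilobase. In the tumor cells the leading ligands were Spp1 at 10107, Mfge8 at 746 and Calr at 511 CPM per kilobase. Their leading receptors were Dag1 at 101, Epha2 at 72.7 and Ephb4 at 67.8 CPM per kilobase. Both cell types thus held a single secreted ligand far above the others, Ccl6 in the macrophages and Spp1 (osteopontin) in the tumor cells.

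**Figure D2:**
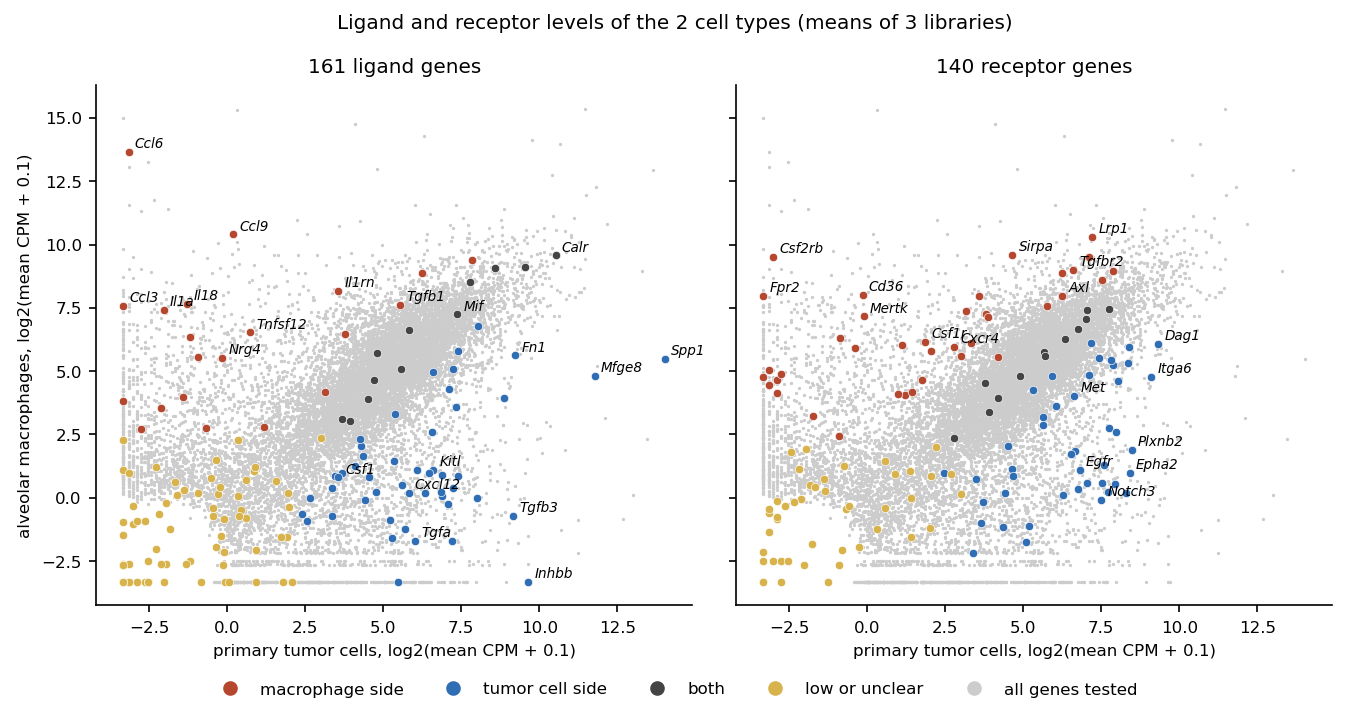
Mean level of each ligand gene (left panel) and receptor gene (right panel) in alveolar macrophages (vertical axis) against primary tumor cells (horizontal axis), both as log2 of the mean CPM plus 0.1, coloured by side, with all tested genes in grey. The 50 tumor cell-side ligands and 21 macrophage-side ligands lie on either side of the diagonal, with Spp1 and Ccl6 at the 2 extremes, while the 38 and 44 receptors of the macrophages and tumor cells are nearer in number.

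Colony-stimulating factors pointed from the tumor cells to the macrophages in 1 pair. Csf1, the growth factor of macrophages, was at 2.12, 1.55 and 1.26 CPM in the macrophages, against 13.8, 10.3 and 11.4 CPM in the tumor cells, and its receptor gene Csf1r at 76.9, 71.2 and 65.7 CPM against 3.13, 4.15 and 3.25 CPM. The GM-CSF receptor was abundant in the macrophages: Csf2rb was at 791, 748 and 650 CPM, against 0.0356, 0.0364 and 0 CPM in the tumor cells, and Csf2ra at 133, 166 and 194 CPM against 9.78, 10.8 and 6.15 CPM. Its ligand gene Csf2 had no count in the macrophages and 0, 0 and 0.0358 CPM in the tumor cells. Neither culture alone thus held the transcript of GM-CSF, on which alveolar macrophages depend in the lung. Csf2rb has a near-identical copy, Csf2rb2, and is uncertain in its exact level. Kitl, the ligand of Kit, averaged 2.05 ± 0.834 CPM in the macrophages and 97.2 ± 22.6 CPM in the tumor cells, which also held Kit at 43.2, 30.3 and 28.8 CPM, against 0.235, 0 and 0.360 CPM in the macrophages.

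The TGF-beta family ran in both directions. Tgfb1 was on the macrophage side, at 230, 195 and 169 CPM against 45.0, 44.4 and 50.1 CPM in the tumor cells. Tgfb3 was at 0, 1.16 and 0.360 CPM in the macrophages, against 725, 556 and 427 CPM in the tumor cells, and Tgfb2 at 2.12, 0.194 and 0.901 CPM against 20.9, 30.3 and 30.2 CPM. Tgfb1 was thus present in both cultures, and Tgfb2 and Tgfb3 almost only in the tumor cells. The receptor genes were higher in the macrophages, with Tgfbr2 at 563, 510 and 456 CPM against 107, 89.0 and 95.7 CPM and Tgfbr1 at 235, 188 and 148 CPM against 58.2, 55.6 and 50.3 CPM in the tumor cells. Activin chains differed likewise: Inhba was at 20.2, 17.8 and 15.7 CPM in the macrophages, against 6.47, 9.90 and 9.80 CPM in the tumor cells, while Inhbb, among the genes furthest on the tumor cell side, was at 851, 755 and 791 CPM there. The receptor genes Acvr1b and Acvr2a had log2 differences of -2.27 ± 0.12 and -1.05 ± 0.18, and Bmpr1a of -3.45 ± 0.19, all on the tumor cell side. Tgfb3, Tgfb2, Bmpr1a and Acvr2a overlap transcripts on the other strand and are uncertain to that extent.

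Most ligand genes of the ErbB receptors were higher in the tumor cells, and EGF was also in the medium of both cultures. Of 9 tested EGF family ligands, 7 were lower in the macrophages and 2 higher. Among all tested genes, 42.4% were lower and 37.3% higher. The summed level of the 10 ligands of the family ran between 51.4 and 55.0 CPM in the macrophages, against 85.0 to 111 CPM in the tumor cells. Tgfa was at 0.235, 0.388 and 0 CPM in the macrophages, against 56.0, 63.1 and 77.1 CPM in the tumor cells, Hbegf averaged 1.86 ± 0.927 CPM and 12.8 ± 1.78 CPM, and Nrg2 0.434 ± 0.382 CPM and 5.84 ± 0.690 CPM. Nrg4, a ligand of ERBB4, was the macrophage-side member, at 48.4, 45.6 and 44.3 CPM against 1.14, 0.546 and 0.715 CPM in the tumor cells, and overlaps 2 transcripts on the other strand. No EGF family pair led from the macrophages to the tumor cells by these rules.

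Angiogenic factors were divided by ligand. Vegfb averaged 87.4 ± 13.1 CPM in the macrophages and 13.5 ± 0.778 CPM in the tumor cells, whereas Pgf (placental growth factor) averaged 0.937 ± 0.0347 CPM and 118 ± 16.9 CPM. Pdgfc (2.06 ± 0.659 CPM and 68.3 ± 13.7 CPM) and Pdgfb (1.68 ± 0.173 CPM and 23.2 ± 0.844 CPM) were lower in the macrophages. The coreceptor gene Nrp1 was at 86.5, 65.6 and 56.0 CPM in the macrophages, against 10.6, 11.1 and 7.94 CPM in the tumor cells, and Pdgfra at 0.705, 1.16 and 1.26 CPM against 25.3, 21.3 and 16.6 CPM. In the FGF and IGF family, Igf2 was the macrophage-side ligand, at 6.58, 5.04 and 8.29 CPM against 0.462, 0.473 and 0.644 CPM in the tumor cells. Its receptor genes were higher in the tumor cells, with Igf2r at 73.3, 58 and 56.7 CPM in the macrophages, against 297, 316 and 395 CPM, and Igf1r at 13.6, 13.4 and 9.19 CPM against 62.0, 62.5 and 73.6 CPM. Fgf2 averaged 0.535 ± 0.215 CPM in the macrophages and 5.13 ± 0.564 CPM in the tumor cells. The receptor genes Fgfr1 and Met, the HGF receptor, had log2 differences of -5.03 ± 0.20 and -2.63 ± 0.16. Igf2, Fgf2, Fgfr1, Pdgfc and Pdgfra share bases with another transcript on the other strand.

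Chemokines were a macrophage family for the CC class. Of 6 tested CC ligands, 5 were higher in the macrophages and none lower. Ccl6, the leading macrophage ligand, was at 14325, 13125 and 11455 CPM in the macrophages, against 0, 0 and 0.0358 CPM in the tumor cells. Ccl9 was at 1468, 1415 and 1199 CPM in the macrophages, against 0.925, 1.42 and 0.787 CPM in the tumor cells, and Ccl3 had 228, 188 and 160 CPM and no count in the tumor cells. Their receptor gene Ccr1 was a macrophage gene too, at 29.9, 24.6 and 20.9 CPM against 0.0356, 0 and 0.0715 CPM, so the 3 pairs stayed within the macrophages. Of the CXC class, the neutrophil attractant genes Cxcl2 and Cxcl3 were on the macrophage side, with log2 differences of 5.80 ± 0.38 and 6.38 ± 0.45, the second of which was 7.22 without the second tumor cell library. Their receptor gene Cxcr2 averaged 5.32 ± 2.07 CPM in the macrophages and 0.430 ± 0.0576 CPM in the tumor cells. Cxcl12 ran from the tumor cells to the macrophages, at 1.65, 0.970 and 0.540 CPM in the macrophages, against 41.3, 47.1 and 79.9 CPM in the tumor cells, with Cxcr4 at 70.5, 63.2 and 51.7 CPM against 6.15, 6.84 and 7.23 CPM. The tumor cells also held its decoy receptor gene Ackr3, with a log2 difference of -2.79 ± 0.43. Cx3cl1 (fractalkine) was at 1.18, 2.52 and 1.62 CPM in the macrophages, against 139, 113 and 105 CPM in the tumor cells, while its receptor gene Cx3cr1 stayed under 1 CPM in all 6 libraries.

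Interleukin-1 family members were the main cytokines of the macrophages. Il1rn, the receptor antagonist, was at 319, 312 and 231 CPM in the macrophages, against 13.4, 11.8 and 9.98 CPM in the tumor cells. Il1a was at 181, 186 and 146 CPM against 0.107, 0.0728 and 0.250 CPM, and Il18 at 193, 206 and 206 CPM against 0.391, 0.291 and 0.250 CPM. The tumor cells held receptor genes for both kinds of ligand. Il1r1 was at 18.8, 15.3 and 12.1 CPM in the macrophages and 20.4, 17.0 and 16.5 CPM in the tumor cells, and was not called (adjusted p = 0.243). Il18r1 was at 0.470, 0.194 and 0.540 CPM in the macrophages, against 14.5, 14.3 and 8.23 CPM in the tumor cells. Lif was the tumor cell-side ligand, averaging 0.503 ± 0.501 CPM in the macrophages and 10.1 ± 1.47 CPM in the tumor cells. The receptors were split between the groups. Il7r had 30.3, 31.4 and 27.2 CPM and Il10ra 24.7, 27.5 and 28.6 CPM in the macrophages, against 0, 0.0728 and 0.0715 CPM and no count in the tumor cells. Il11ra1, which overlaps Ccl27a, had a log2 difference of 1.39 ± 0.14. Osmr, the oncostatin M receptor gene, was at 2.12, 0.582 and 0.540 CPM in the macrophages, against 228, 216 and 184 CPM in the tumor cells, and Il13ra1 and Ifnar1 had log2 differences of -1.91 ± 0.18 and -1.12 ± 0.12.

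Members of the TNF family led from the macrophages to the tumor cells. Tnfsf12 (TWEAK) was at 97.8, 84.8 and 95.8 CPM in the macrophages, against 1.56, 1.09 and 2.04 CPM in the tumor cells, and its receptor gene Tnfrsf12a at 1.65, 3.88 and 5.04 CPM against 96.5, 97.3 and 108 CPM. Tnf was close to the 5 CPM limit, at 7.99, 6.01 and 6.30 CPM in the macrophages, against 1.78, 2.37 and 2.33 CPM in the tumor cells. Its receptor gene Tnfrsf1a was at 73.3, 67.7 and 64.5 CPM against 154, 142 and 139 CPM. Both partners of each pair were thus one-sided. The death ligand gene Tnfsf10 (TRAIL) averaged 2.30 ± 1.09 CPM in the macrophages and 16.8 ± 2.05 CPM in the tumor cells, and its receptor gene Tnfrsf10b 4.05 ± 0.707 CPM and 22.7 ± 2.00 CPM. The costimulatory receptor gene Tnfrsf9 was on the macrophage side, at 10.8, 12.8 and 4.14 CPM against 0.213, 0.109 and 0.286 CPM. Tnfsf12 shares its exons with the read-through gene Tnfsfm13.

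Notch and Wnt ligands were lower in the macrophages. This held for all 6 tested, with a median log2 difference of -4.93. Dll1, a Notch ligand, was at 0.235, 0.194 and 0.180 CPM in the macrophages, against 140, 137 and 164 CPM in the tumor cells. Jag1 was present in both, at 30.8, 30.3 and 32.1 CPM in the macrophages, against 74.7, 93.6 and 122 CPM in the tumor cells, and Jag2 averaged 1.32 ± 0.702 CPM and 48.8 ± 3.90 CPM. The receptor gene Notch1 averaged 37.7 ± 0.574 CPM in the macrophages and 235 ± 38.0 CPM in the tumor cells, and the Wnt receptor genes Lrp6 and Ryk had log2 differences of -2.38 ± 0.09 and -6.34 ± 0.14. No pair of the family was counted from the macrophages to the tumor cells. Jag1 was above 5 CPM in the macrophages too, but it was on the tumor cell side. Its pairs with Notch1 and Notch3 were therefore counted within the tumor cells. The other way 3 pairs were counted, Jag1 and Jag2 with Notch2 and Wnt7b with Fzd1. Notch2 was held by both, at 193, 166 and 158 CPM in the macrophages, against 148, 129 and 118 CPM in the tumor cells. The Wnt receptor gene Fzd1 was at 29.4, 26.6 and 27 CPM in the macrophages and 33.8, 26.9 and 29.0 CPM in the tumor cells, and was not called (adjusted p = 0.415). Wnt7b had no count in the macrophages and 43.2, 41.3 and 48.9 CPM in the tumor cells. Notch1, Dll1 and Wnt7b overlap transcripts on the other strand, and Notch2 overlaps one on its own strand.

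Matrix ligands were nearly all tumor cell genes: 14 of 15 tested were lower in the macrophages, with a median of -4.97. Spp1 was at 59.9, 36.9 and 37.6 CPM in the macrophages, against 19718, 17287 and 12965 CPM in the tumor cells. Mfge8, which bridges dying cells to phagocytes, was at 32.4, 23.3 and 27.7 CPM in the macrophages, against 3106, 4230.2 and 3175 CPM in the tumor cells. Fibronectin (Fn1) averaged 49.4 ± 3.98 CPM in the macrophages and 601 ± 92.1 CPM in the tumor cells. The receptors were divided. Cd44, which binds osteopontin and hyaluronan, was at 563, 493 and 414 CPM in the macrophages, against 245, 223 and 239 CPM in the tumor cells, a log2 difference of 1.06 (SE 0.12, adjusted p = 1.50e-05). Cd36, a receptor for thrombospondin and lipid, was at 310, 262 and 200 CPM in the macrophages, against 0.605, 0.873 and 0.930 CPM in the tumor cells. The thrombospondin gene Thbs1 was at 59.2, 44.8 and 60.7 CPM in the macrophages, against 108, 174 and 226 CPM in the tumor cells. Dag1 (dystroglycan), a laminin receptor, was at 81.6, 70.2 and 51.3 CPM in the macrophages, against 642, 648 and 642 CPM in the tumor cells, and Itgav at 52.9, 35.1 and 32.4 CPM against 364, 332 and 285 CPM. Both groups thus held the 2 osteopontin receptor genes Cd44 and Itgav above 5 CPM. Itgav was on the tumor cell side. Cd44 was on the macrophage side only narrowly, and lost its call when the test asked for a log2 change beyond 1.

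Contact ligands of immune cells gave few but clear pairs. Sirpa, the inhibitory receptor for CD47, was at 855, 740 and 710 CPM in the macrophages, against 23.4, 24.7 and 26.8 CPM in the tumor cells. Its ligand gene Cd47 was higher in the macrophages as well, at 566, 468 and 388 CPM against 70.4, 74.2 and 82.2 CPM. Cd200 was at 139, 100 and 87.2 CPM in the macrophages, against 288, 236 and 259 CPM in the tumor cells, and its inhibitory receptor gene Cd200r1 at 23.7, 21.1 and 20.0 CPM against 0, 0 and 0.0358 CPM. The tumor cells therefore held both ligands, while the macrophages held both receptors and, for Cd47, more of the ligand than the tumor cells. Cd274 (PD-L1) was a macrophage gene, at 91.0, 78.2 and 74.8 CPM against 0.320, 0.437 and 0.250 CPM in the tumor cells, and overlaps a transcript on the other strand. Cd80 was at 6.58, 6.21 and 6.66 CPM against 0, 0.109 and 0.0358 CPM. Nectin2, a ligand of T cell and natural killer cell receptors, averaged 9.69 ± 1.30 CPM in the macrophages and 41.3 ± 4.38 CPM in the tumor cells.

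Genes of dying-cell clearance pointed to the macrophages. The bridging ligand genes Gas6 and Pros1 were on the tumor cell side. Gas6 was at 2.35, 1.16 and 2.16 CPM in the macrophages, against 117, 79.0 and 69.4 CPM in the tumor cells, and Pros1 (protein S) at 42.8, 31.8 and 26.8 CPM against 129, 157 and 167 CPM. Their receptor genes divided by member. Axl was at 284, 231 and 244 CPM in the macrophages, against 71.9, 65.2 and 90.5 CPM in the tumor cells, and Mertk at 163, 136 and 131 CPM against 0.854, 1.13 and 0.501 CPM. Tyro3 was the opposite, at 0.470, 0.582 and 0 CPM in the macrophages, against 20.4, 22.2 and 18.5 CPM in the tumor cells. So of the 3 TAM receptor genes, Mertk and Axl were on the macrophage side and Tyro3 on the tumor cell side. Axl was nevertheless higher than Tyro3 in the tumor cells themselves, so both groups held it. Fpr2, the receptor for annexin A1 and formyl peptides, was at 292, 247 and 214 CPM in the macrophages and had no count in the tumor cells. Fpr2 and Fpr3 overlap on the same strand and are alike in sequence, so Fpr2 is uncertain. Gas6 overlaps Tmem255b.

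Among complement, protease and guidance genes, Grn (progranulin) and its receptor gene Sort1 (sortilin) were both macrophage-side. Grn averaged 678 ± 132 CPM in the macrophages and 228 ± 29.0 CPM in the tumor cells, and Sort1 719 ± 143 CPM and 138 ± 15.9 CPM. The urokinase receptor gene Plaur was at 74.7, 59.4 and 61.1 CPM in the macrophages, against 1.42, 2.15 and 2.65 CPM in the tumor cells. Ednra, the endothelin receptor gene, was at 0.705, 0.388 and 0 CPM in the macrophages, against 44.6, 41.7 and 22.2 CPM in the tumor cells. Guidance cues were mostly of the tumor cells. Ntn1 (netrin) averaged 1.21 ± 0.224 CPM in the macrophages and 149 ± 5.45 CPM in the tumor cells, and Efnb1 2.60 ± 1.01 CPM and 40.4 ± 2.65 CPM. Sema3e was the macrophage-side cue, at 58.8, 39.2 and 45.0 CPM against 0.569, 0.218 and 0.465 CPM in the tumor cells, and its receptor gene Plxnd1 was at 141, 172 and 150 CPM against 15.0, 14.0 and 12.7 CPM. Sema3c ran from the tumor cells to Nrp2 of the macrophages. Sema3c was at 1.18, 1.36 and 0.540 CPM in the macrophages, against 82.1, 86.7 and 73.6 CPM in the tumor cells, and Nrp2 at 296, 255 and 197 CPM against 12.6, 11.1 and 11.7 CPM. The receptor genes Plxnb2, Epha2 and Ephb4 had log2 differences of -6.61 ± 0.12, -7.50 ± 0.24 and -8.19 ± 0.18.

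Hormone receptors were few. Adipor1, an adiponectin receptor gene, averaged 384 ± 4.31 CPM in the macrophages and 183 ± 5.62 CPM in the tumor cells. The leptin receptor gene Lepr was at 142, 137 and 149 CPM in the macrophages, against 12.8, 20.6 and 9.76 CPM in the tumor cells. Prlr, the prolactin receptor gene of milk production, was at 1.41, 0.776 and 0.720 CPM in the macrophages, against 92.1, 74.8 and 62.8 CPM in the tumor cells. Each of these receptors was thus on a side, but Adipor1 only narrowly, with a log2 difference of 1.07. No ligand of the family was on the macrophage side. Angpt1 was the 1 ligand on the tumor cell side, at 0.705, 0 and 0 CPM in the macrophages, against 50.1, 34.1 and 32.8 CPM in the tumor cells, and Ntrk2 averaged 1.85 ± 1.02 CPM and 5.41 ± 1.29 CPM.

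Read together as pairs, 13 of 197 (6.60%) led from the macrophages to the tumor cells and 29 (14.7%) from the tumor cells to the macrophages. In such a pair the ligand is on the sender's side or held by both. The receptor is on the receiver's side or held by both, and at least 1 of them is on a side. Both partners were one-sided in 7 of the 13 and in 17 of the 29. A further 10 pairs (5.08%) were within the macrophages, meaning that both genes were on their side, and 35 (17.8%) within the tumor cells likewise. Another 1 (0.508%) was held by both. Pairs within a cell type were not counted as leading across, even where the other cells also reached 5 CPM. Tgfb1 with Tgfbr2 was such a pair, at 198 CPM for the ligand in the macrophages and 97.3 CPM for the receptor in the tumor cells. The other 109 pairs (55.3%) had a partner that was low or unclear. The 7 one-sided pairs toward the tumor cells were Inhba with Acvr1b and Acvr2a, Igf2 with Igf1r and Igf2r, Il18 with Il18r1, Tnf with Tnfrsf1a, and Tnfsf12 with Tnfrsf12a. The matrix family gave 7 of the 29 pairs toward the macrophages, dying-cell clearance 6 and the TGF-beta family 5. Interleukins gave 4 of the 13 pairs toward the tumor cells and the TNF family 3, and neither family gave a pair in the other direction.

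**Figure D3:**
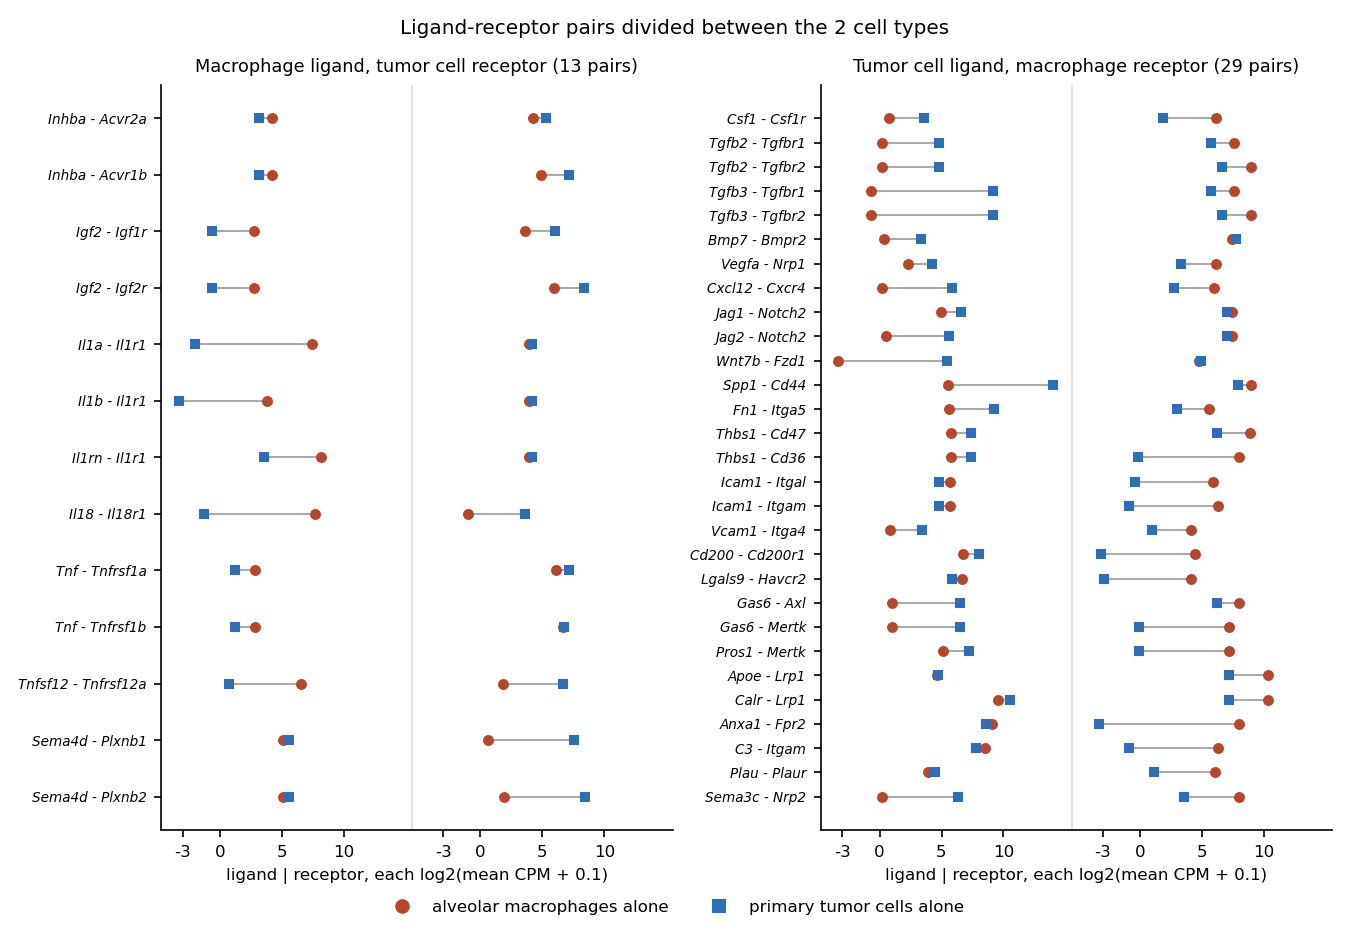
The 13 ligand and receptor pairs from alveolar macrophages to primary tumor cells and the 29 pairs from tumor cells to macrophages, with ligand and receptor each as log2 of the mean CPM plus 0.1 in alveolar macrophages (circles) and primary tumor cells (squares). Most tumor cell ligands lie well above their level in the macrophages. Only 7 of the 13 pairs in the first set and 17 of the 29 in the second have both partners one-sided. In these the ligand is on the sender's side and the receptor on the receiver's.

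The study's other libraries hold the same contrast in other cultures, and none of them entered the tests above. After co-culture and sorting, macrophages and tumor cells (3 libraries each) had 37.8% of tested genes higher in the macrophages and 42.4% lower. In the early lesion experiment, 2 macrophage libraries were set against 3 of early lesion cells, also MMTV-HER2 mammary epithelium, and 37.1% were higher and 40.7% lower. Of the list and pair genes called in the mono-cultures and tested in these libraries, 377 of 395 had the same sign after co-culture and 384 of 410 in the early lesion experiment. The markers of alveolar macrophages kept their sign in 11 of 11 in either set. Mitotic genes did so in 4 of 12 after co-culture and 11 of 12 in the early lesion experiment. Class I genes did so in 8 of 8 after co-culture and 4 of 8 in the early lesion experiment. The same share over all genes called in the mono-cultures was not computed. These counts therefore do not show whether the lists kept their sign more often than other genes. Erbb2 was at 84.4, 80.7 and 109 CPM in co-cultured macrophages, against 4979, 5212 and 4087 CPM in co-cultured tumor cells, so the macrophages held more of it than when cultured alone, and the source of these counts was not tested.

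Some genes differed in direction between the sets of libraries. Inhba was at 3.08, 4.34 and 2.82 CPM in co-cultured macrophages, against 4.70, 4.29 and 4.52 CPM in co-cultured tumor cells, a log2 difference of -0.41 (adjusted p = 0.16) that was not called. Tnf was at 0.879, 1.02 and 1.18 CPM in co-cultured macrophages, against 3.17, 2.38 and 1.96 CPM in co-cultured tumor cells, and at 4.56 and 2.85 CPM against 13, 18.6 and 19.8 CPM in the early lesion experiment. The macrophage side of Tnf was thus not seen in either of the other sets. Igf2 remained a macrophage gene after co-culture, at 14.9, 12 and 4.47 CPM against 1.80, 1.36 and 1.07 CPM, but stood at 0.307 and 0.374 CPM in macrophages of the early lesion experiment, against 12, 16.9 and 19.7 CPM in early lesion cells, a log2 difference of -5.53 (adjusted p = 1.50e-06). Pros1 and H2-K1 turned round there too, with log2 differences of 0.87 (adjusted p = 5.84e-06) and 2.29 (adjusted p = 8.57e-10). Of the 7 one-sided pairs toward the tumor cells, the ligands of those with Tnfsf12 and Il18 kept their direction in all 3 sets. Csf2rb, Ccl6, Chil3, Erbb2 and Tgfb3 kept their direction in all 3 sets.

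**Figure D4:**
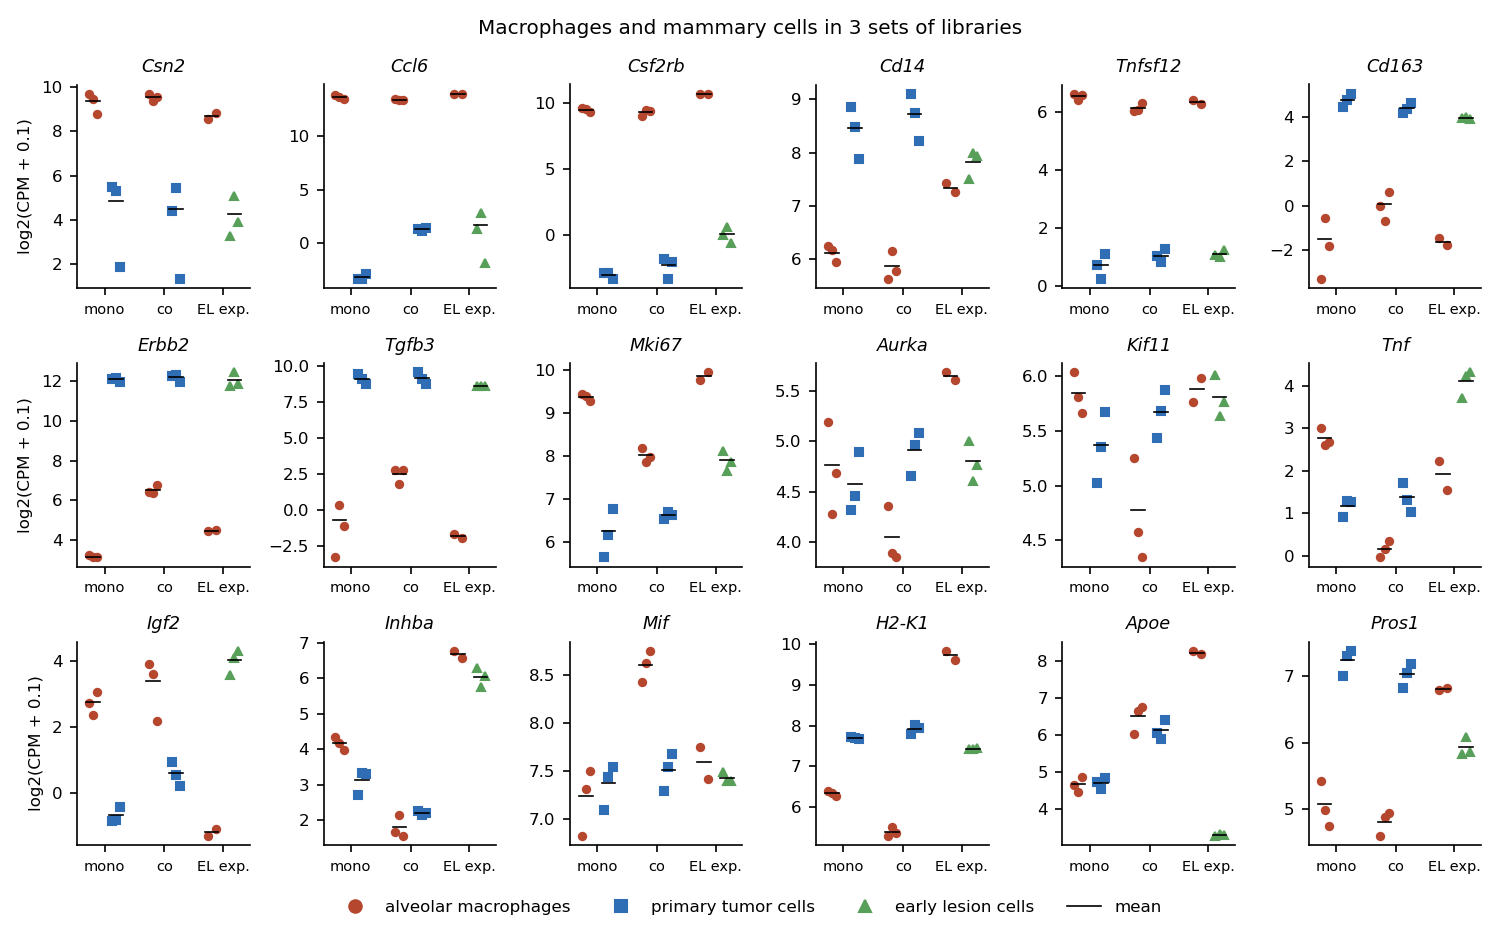
Level of 18 genes in each library of the mono-cultures, of the co-cultures and of the early lesion experiment, as log2 of CPM plus 0.1, with macrophages (circles) left of the primary tumor cells (squares) or early lesion cells (triangles) and bars at the means. Ccl6, Csf2rb and Erbb2 stay apart in the same direction in all 3 sets, whereas Tnf, Igf2, H2-K1 and Pros1 change order in at least 1 of them.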

How the data were processed

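RNA-sequencing counts per gene symbol, as deposited by the authors, were used for the 6 mono-culture libraries of the primary tumor experiment. Per the labels' protocols, RNA was purified from the cells, polyadenylated RNA was captured with oligo-dT beads, and libraries were made with NEBNext Ultra. Per the submitters' processing notes, bcl2fastq 2.17 and build mm10 were used. The aligner, annotation and strandedness are not given in these sources, so genes that overlap on opposite strands are called uncertain. The labels call the replicates biological, and p-values measure the spread between these libraries.

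Symbols beginning with mt- and Grip2 were removed before library sizes were computed. Genes were filtered with filterByExpr and scaled by TMM, and macrophages were compared with tumor cells by a robust two-sided quasi-likelihood test in edgeR 4.0.16 (R 4.3.3), with Benjamini-Hochberg adjustment over all 13810 tested genes and 3 libraries per group. limma 3.58.1 and DESeq2 1.42.0 served the alternatives. CPM were computed from the counts on TMM-scaled library sizes, and CPM per kilobase used exon lengths of GENCODE M21. Where a group had no count, the fold is a bound against 3 counts over that group. Where it had 1 to 3 counts, the ratio is given with a 95% exact counting interval, which covers counting error only. A gene is on a side if called, at least 2-fold apart and at 5 CPM or more in the higher group. The test was tried on simulated counts first.

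The cell type lists, gene lists and ligand-receptor pairs, and the comparison itself, were chosen with earlier results of these data known. Genes were named by 1 rule: the 12 with the largest difference in each direction among called genes whose groups did not overlap and whose higher mean was at least 100 CPM, without provisional symbols, and of each list the 3 with the highest mean on either side, with all cell type markers counted. Others were named after their values were seen, as partners in pairs, and 1 gene that the rule names is not reported here. Alternatives were 2 other scalings, no filter, DESeq2, other dispersion and fold settings, a replicate block, a joint fit, the removed genes kept, each library left out, other limits for a side, and the co-culture and early lesion libraries.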

Additional observations from a re-analysis of the deposited data

How the results depend on the processing

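Of 215 named and tested genes, 210 were called, and 196 of these kept their direction and their call under each of the settings that used the same 6 libraries. The other 14 lost the call only when the test asked for a log2 change beyond 1 (glmTreat), which makes fewer calls by its construction: 2951 genes were then higher in the macrophages and 3366 lower. Pairs from the macrophages to the tumor cells numbered 21 at a limit of 1 CPM and 3 at a limit of 20 CPM, since the limit decides which genes count as held. Leaving out each library in turn gave 4696 to 5129 higher and 5177 to 6049 lower genes, 20 to 23 macrophage-side and 49 to 52 tumor cell-side ligands, 37 to 38 macrophage-side and 43 to 46 tumor cell-side receptors. It gave 13 to 14 pairs toward the tumor cells, 29 to 31 toward the macrophages, 8 to 10 within the macrophages and 34 to 35 within the tumor cells. With the replicate block, 5017 genes were higher and 5728 lower. The numbers did not pair the libraries: same-numbered libraries had correlations of 0.0255, -0.0542 and 0.0538 between their deviations. Dcn, which was not called, ran between -0.71 and 0.0160 when single libraries were left out, and turned round without the second macrophage library. Fzd1, also not called, was 0.0256 without the first tumor cell library.

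Directions otherwise turned round only in other libraries, and the cause was not tested. After co-culture the log2 difference was 1.84 for Acta2 and -1.29 for Tnf, both called. It lost the call, with the opposite sign, at 0.0654 for Abca1, 0.66 for Apoc1, -0.12 for Il11ra1, -0.41 for Inhba, 0.000391 for Krt19 and -0.17 for Tpx2 (adjusted p between 0.0735 and 0.998). In the early lesion experiment the called ones were 2.72 for Apoc1, 0.67 for Calr, 1.01 for Ctsl, 0.44 for Fzd1, 2.29 for H2-K1, -5.53 for Igf2, 0.87 for Pros1, -0.23 for Runx1, 0.32 for Tap1 and -2.24 for Tnf, and those without a call -0.0799 for Notch2 and 0.0590 for Tnfrsf1a. Col3a1, H2-Ab1 and Notch2 after co-culture, and Ntrk2, Rps6-ps4 and S100a8 in the early lesion experiment, kept their direction without the call. The smaller macrophage libraries limit what can be said of genes with few counts, so bounds and counting intervals are given for those.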
